A study of Mus musculus with 6 samples.

Results

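The 40 genes described here encode the contractile apparatus of skeletal muscle and the calcium-handling and energy proteins that serve it. They were selected by a list of gene names, written with earlier results of these data known, and all 40 were found among the 33308 genes of a mouse skin RNA-seq table. By fibre type they divide into 15 fast genes, 11 slow genes, 2 developmental genes and 12 genes used by all fibres. Of the 40, 35 reached a mean of 1 FPKM (fragments corrected for gene length and sequencing depth) over the 6 libraries and were tested. The 5 that did not were Myh3, Myh7, Tnni1, Tnnc1 and Myl3, and 4 of these are slow genes. The libraries came from 3 skin samples of untreated control mice and 3 of mice given osimertinib, a drug that blocks the EGF receptor, for 42 days. The design names osimertinib-related skin problems as the question. The sources used here do not give strain, age, sex, dose, route or body site. Since no label ties the replicates to different mice, each p-value measures the spread between samples, and that spread may be technical.

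Skeletal muscle contracts when myosin heavy chains in the thick filament pull on actin in the thin filament. Troponin and tropomyosin gate this movement by calcium, which the sarcoplasmic reticulum releases through the ryanodine receptor and takes back through SERCA pumps. Fibres are typed by their myosin heavy chain: Myh4 marks type IIb, Myh1 type IIx and Myh2 type IIa, all fast, while Myh7 marks slow fibres, and Myh3 and Myh8 are the embryonic and perinatal forms. Most troponin subunits, light chains, calsequestrins and pumps likewise come in a fast and a slow version. Mouse skin lies on the panniculus carnosus, a thin sheet of striated muscle, and skin samples therefore hold its transcripts.

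The start regions of 5 of these genes are shown because the results turn on them: Myh4 and Myh1, the most abundant heavy chains, and Acta1, Pvalb and Casq1, 3 of the 5 genes whose levels relative to the muscle RNA of each library did not overlap between the groups. Each window runs from 250 bases before to 50 bases after a RefSeq start site (build GRCm38.p6), 5′ to 3′ on the strand of the gene. Capitals mark a match, on either strand, to CAGCTG (the E-box form preferred by MyoD), to TATAAA, to the MEF2 site or to the CArG box bound by serum response factor. The windows lie at chr11:67237562-67237861 (+ strand) for Myh4, chr11:67199852-67200151 (+) for Myh1, chr8:123894726-123895025 (−) for Acta1, chr15:78206351-78206650 (−) for Pvalb and chr1:172219846-172220145 (−) for Casq1.
Myh4: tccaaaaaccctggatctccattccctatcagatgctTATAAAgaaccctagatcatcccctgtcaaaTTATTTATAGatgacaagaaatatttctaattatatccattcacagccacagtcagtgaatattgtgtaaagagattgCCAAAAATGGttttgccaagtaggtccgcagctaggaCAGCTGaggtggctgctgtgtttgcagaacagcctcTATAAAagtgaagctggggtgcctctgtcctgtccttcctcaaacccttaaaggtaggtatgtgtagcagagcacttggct
Myh1: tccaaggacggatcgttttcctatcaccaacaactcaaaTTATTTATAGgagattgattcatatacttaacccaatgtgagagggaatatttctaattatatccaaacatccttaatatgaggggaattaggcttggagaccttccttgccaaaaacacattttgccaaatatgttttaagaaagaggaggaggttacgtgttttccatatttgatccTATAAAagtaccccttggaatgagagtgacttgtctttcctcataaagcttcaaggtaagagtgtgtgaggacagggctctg
Acta1: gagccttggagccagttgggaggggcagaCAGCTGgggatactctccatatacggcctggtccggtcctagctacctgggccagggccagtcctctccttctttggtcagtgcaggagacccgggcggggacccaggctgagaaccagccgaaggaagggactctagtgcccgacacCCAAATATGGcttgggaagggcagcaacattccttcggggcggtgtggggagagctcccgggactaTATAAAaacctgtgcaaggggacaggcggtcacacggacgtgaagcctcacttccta
Pvalb: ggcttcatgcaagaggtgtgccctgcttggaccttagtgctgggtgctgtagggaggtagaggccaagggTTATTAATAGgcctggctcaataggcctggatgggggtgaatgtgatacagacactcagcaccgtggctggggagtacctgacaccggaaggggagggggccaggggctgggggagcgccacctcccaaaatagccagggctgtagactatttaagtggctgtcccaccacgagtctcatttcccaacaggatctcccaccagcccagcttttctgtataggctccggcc
Casq1: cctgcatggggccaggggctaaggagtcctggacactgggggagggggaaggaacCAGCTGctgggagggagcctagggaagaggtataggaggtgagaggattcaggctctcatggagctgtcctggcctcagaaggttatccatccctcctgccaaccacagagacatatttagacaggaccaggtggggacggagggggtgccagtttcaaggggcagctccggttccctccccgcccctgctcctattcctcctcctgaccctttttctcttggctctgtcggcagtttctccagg

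RefSeq windows were found for 31 of the 40 genes, 38 windows in all, and none for Actn3, Atp2a2, Mylk2, Myot, Myoz1, Neb, Tcap, Tnni2 and Tnnt3. CAGCTG occurred in 47.4% of the 38 windows, against 16.3% of all 32851 RefSeq windows of this length. The MEF2 site, sought by its consensus, occurred in 18.4% against 3.19%, and the CArG box in 7.89% against 1.63%. TATAAA occurred in 23.7% against 13.6%, and the general E-box CANNTG, which includes CAGCTG, in 89.5% against 72.3%. In Myh1 and Myh4 the MEF2 match has the same letters, TTATTTATAG, and starts 211 and 182 bases before the start site; the perinatal Myh8 holds the same letters 99 bases before its own. Inside these letters the other strand also reads TATAAA, so both motifs count there. The Acta1 window holds CAGCTG 221 bases and a CArG match 73 bases before the start. Pvalb has a MEF2 match 180 bases before the start and Casq1 has CAGCTG 195 bases before it. These matches describe the letters only, and the data do not test whether any factor binds them.

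The amount of muscle RNA differed among libraries far more than between the groups. The muscle total, the summed count of the 35 genes that are not also widely expressed outside striated muscle (all but Tpm1, Tpm2, Tpm3, Des and Atp2a2), took 5.05%, 14.8% and 0.0356% of the library in controls 1, 2 and 3. It took 7.93%, 4.92% and 7.75% in osimertinib samples 1, 2 and 3. Control 2 had the most muscle RNA and control 3 the least, 417-fold apart, and all treated samples lay between them. The means were 6.64% ± 7.53 in controls and 6.87% ± 1.69 in treated skin (SD, n = 3 each). On the log2 scale the treated mean was higher by 2.27 (exact two-sided permutation test, p = 0.8; the smallest p that 3 against 3 allows is 0.1), and without control 3 the difference was -0.37. In whole skin, fewer muscle fibres and less RNA per fibre cannot be told apart.

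Control 3 held 20371 muscle counts against 2731091 to 8425553 in the other 5 libraries. The muscle total, class shares, pairs and counts of members with groups that did not overlap are therefore given with and without control 3. A separate list of 24 striated muscle genes that are not among the 40 took 0.719%, 2.17% and 0.0154% of the control libraries and 1.09%, 0.817% and 1.14% of the treated ones, the same order at both ends. Keratinocyte markers were present in every library, with a summed level of 4143 to 16713 FPKM over 9 genes, and highest in control 3. Library totals ran from 54112624 to 60719064 counts, so that 3 counts, the limit that a count of 0 allows, is 0.0494 to 0.0554 CPM (counts scaled to library size); this limit and the intervals below cover counting error only.

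**Figure D1:**
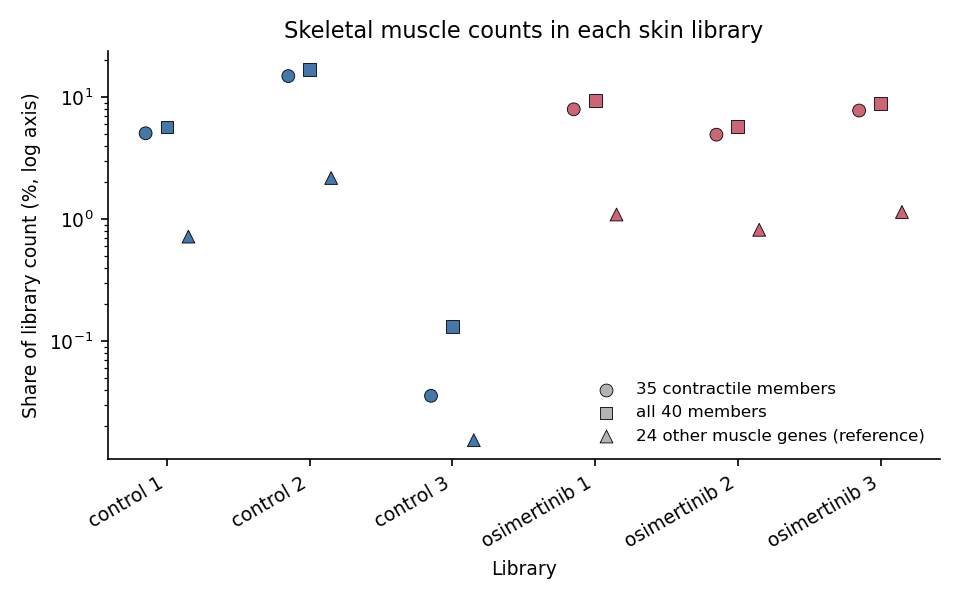
Muscle RNA in each library: percent of the library count (vertical log axis) held by the 35 contractile genes of the muscle total (circles), all 40 contractile genes (squares) and the 24 other striated muscle genes (triangles), with 1 point of each per library. For the 35 genes control 3 sits at 0.0356% and control 2 at 14.8%, on both sides of the treated samples at 4.92% to 7.93%.

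No contractile gene passed the test between osimertinib and control. In edgeR's quasi-likelihood test with Benjamini-Hochberg adjustment over 13498 genes, 0 of 35 members were called, and the share called among all genes was 0.0%. None of the 35 had an unadjusted p under 0.05, against 1883 of all genes. DESeq2 called 858 genes and 0 members. The members' log2 fold changes, treated over control, were positive for 14 and negative for 21, with a median of -0.21, beside -0.05 over all genes and -0.19 over the 24 other muscle genes. These signs are not stable: limma on log2(FPKM + 1) gave 34 positive members and a median of 1.83, and without control 3 edgeR gave 7 positive members and a median of -0.81. Myh2 had the smallest adjusted p of the members (edgeR, 0.751), at a log2 fold change of 1.32 ± 1.40 (SE, n = 3 per group). Standard errors of 1.31 to 1.64 stood beside most members that only muscle makes, such as Acta1 (0.10 ± 1.6), Myh4 (-0.33 ± 1.64) and Ckm, the muscle creatine kinase (-0.31 ± 1.6). Tpm3 (0.12 ± 0.27) and Atp2a2 (0.17 ± 0.20), genes also used outside muscle, had far smaller errors. By level alone, in scaled CPM, 0 of 35 members had treated samples all above or all below the controls, against 11.3% of all tested genes above and 9.38% below.

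Relative to the muscle total, the fast genes as a class held most of the muscle RNA in all 6 libraries, including control 3. Each gene's FPKM was divided by the summed FPKM of the 35 muscle-total genes and is given per 100 of that sum. Since these shares add up to 100 over the 35 genes, a higher share of one goes with lower shares of others. The 15 fast genes made up 78.3, 72.9 and 71.5 per 100 in controls 1 to 3 and 71.0, 62.8 and 72.6 in treated samples 1 to 3 (74.2 ± 3.55 against 68.8 ± 5.25, SD, n = 3; exact permutation p = 0.2). Genes of all fibres, 9 of them in the total, made up 21.4, 26.8 and 25.3 per 100 in controls and 28.6, 36.5 and 27.0 in treated skin. These groups did not overlap (24.5 ± 2.76 against 30.7 ± 5.08, exact permutation p = 0.1, the smallest possible). Acta1 carried this difference: the other 8 genes together made up 8.01, 10.1 and 10.3 per 100 in controls and 9.81, 13.4 and 9.84 in treated skin, with overlapping groups. Slow genes, 9 in the total, made up 0.321, 0.300 and 3.17 per 100 in controls and 0.441, 0.694 and 0.361 in treated skin, and control 3 alone was above 1 per 100. Most of the control 3 value was Tnnt1 (1.16), Mybpc1 (0.945) and Casq2 (0.761). Tnnt1 and Casq2 varied little beside the muscle total, at 1.80 to 4.43 and 1.18 to 4.10 FPKM, so its small size in control 3 raised their shares. Outside control 3 most of this slow sum was Mybpc1 alone. It was at 0.292, 0.266 and 0.945 per 100 in controls and 0.397, 0.633 and 0.318 in treated skin. The developmental pair, nearly all of it Myh8, made up 0.0155 to 0.0230 per 100 in controls and 0.0137 to 0.0148 in treated skin (exact permutation p = 0.1). Without control 3 the fast class did not overlap either: each treated sample was lower, narrowly so for osimertinib 3 (72.6 against 72.9 in control 2). The slow class was then higher in each treated sample, and the other classes stayed apart. The smallest exact permutation p without control 3 is still 0.1.

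**Figure D2:**
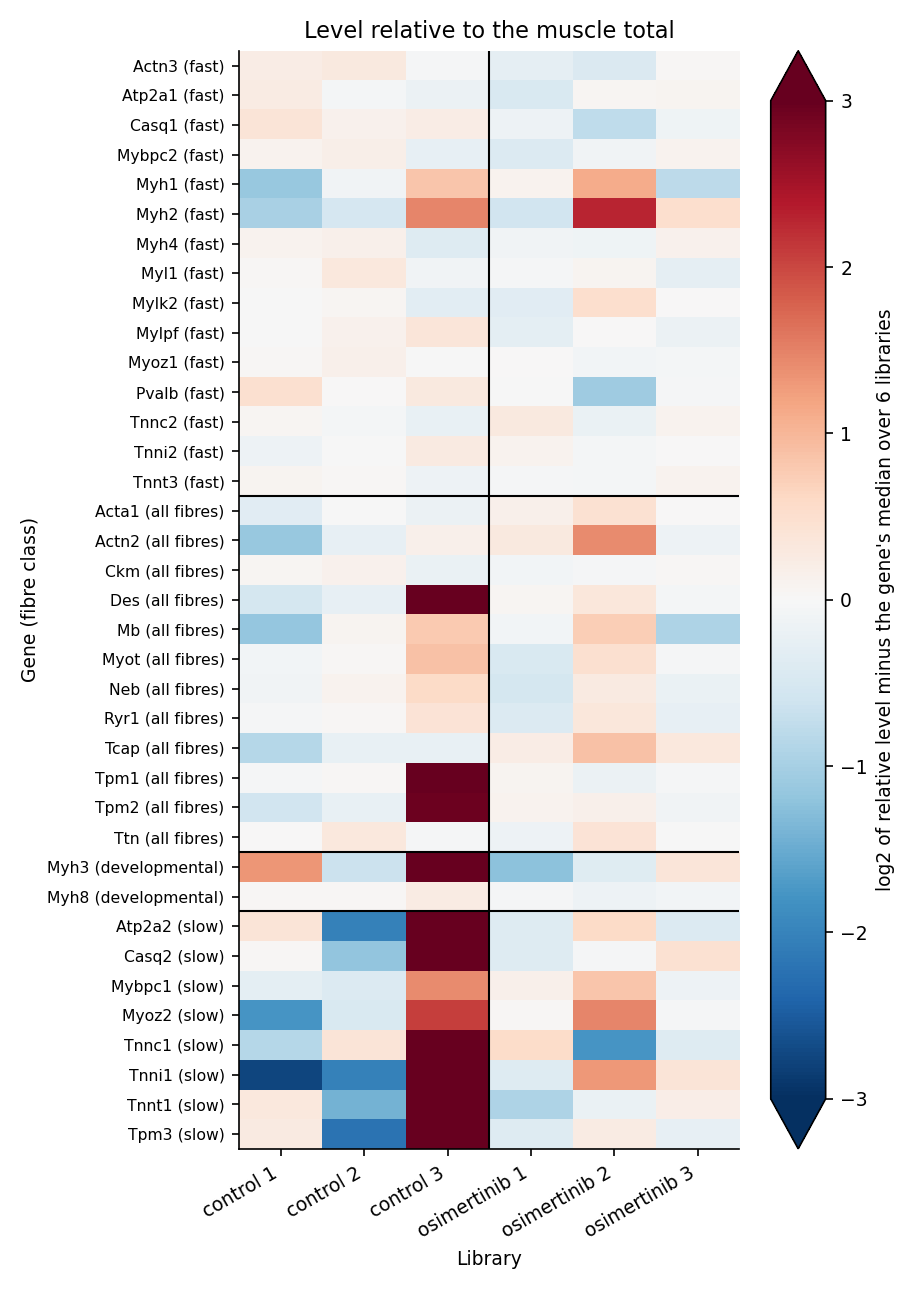
Level of 37 members relative to the muscle total in each library, as log2 of the ratio to the gene's median over the 6 libraries (colour, limited to 3 either way); Myh7, Myl2 and Myl3 are left out because they are at 0 in at least 1 library. The fast rows other than Myh1, Myh2, Pvalb and Casq1 are nearly even across columns, and the slow rows and the genes also used outside muscle stand out in control 3.

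Myh4, the type IIb chain, led the heavy chains in every library, and the treatment groups overlapped for all 6 as shares of the heavy chain sum. Its level was 1117, 3325 and 5.58 FPKM in controls and 1616, 896 and 1767 FPKM in treated skin, following the muscle total. As a share of the 6 heavy chains it was 93.6%, 88.6% and 72.5% in controls and 84.9%, 71.7% and 91.6% in treated skin (84.9% ± 11.0 against 82.7% ± 10.1, SD, n = 3; exact permutation p = 0.7, 0.8 after Benjamini-Hochberg adjustment over 6 genes). The groups overlapped fully, with the 2 lowest shares in control 3 and osimertinib 2.

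Myh1, the IIx chain, filled most of the remainder. Its level was 67.1, 398 and 1.86 FPKM in controls and 269, 302 and 135 FPKM in treated skin. Its share of the heavy chains was 5.62%, 10.6% and 24.2% in controls and 14.2%, 24.2% and 6.99% in treated skin (exact permutation p = 0.8). Control 3 and osimertinib 2 thus had nearly the same Myh1 share at 133-fold different muscle totals. In counts, control 3 had 793 Myh1 counts of 3169 heavy chain counts, 25.0% (95% Wilson interval 23.5% to 26.6%).

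Myh2, the IIa chain of oxidative fast fibres, was scarce. It measured 5.35, 21.3 and 0.207 FPKM in controls and 12, 48.7 and 23.2 FPKM in treated skin, or 0.449%, 0.568% and 2.69% against 0.632%, 3.9% and 1.20% of the heavy chains (exact permutation p = 0.5). Relative to the muscle total, osimertinib 2 exceeded the median of the other 4 muscle-rich libraries 7.12-fold for Myh2. Without control 3, each treated sample had a higher Myh2 share of the heavy chains than each control, but relative to the muscle total the groups still overlapped (0.0325 per 100 in osimertinib 1 against 0.0339 in control 2). Myh7, the slow chain, was at or near 0: its counts were 4, 37 and 4 in controls and 36, 0 and 0 in treated skin. A count of 0 among 537249 heavy chain counts in osimertinib 2 allows a share of up to 0.000558%. The 5 skeletal chains Myh3, Myh2, Myh1, Myh4 and Myh8 lie side by side on chromosome 11 between 67078300 and 67308634 (GRCm38) and are close in sequence, so shared reads may have been divided between them in an unknown way.

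**Figure D3:**
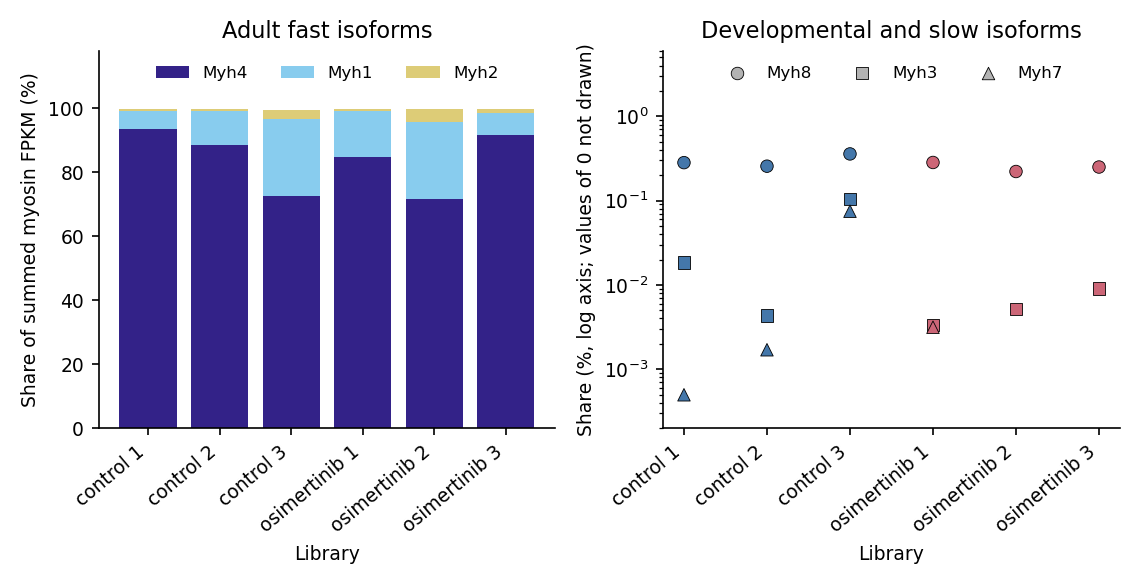
Share of each myosin heavy chain gene in the summed FPKM of the 6, in percent. Left, 1 stacked bar per library for Myh4, Myh1 and Myh2. Right, points for Myh8, Myh3 and Myh7 on a log axis, with values of 0 not drawn. Myh4 fills 71.7% to 93.6% and Myh1 5.62% to 24.2%, and control 3 and osimertinib 2 have the most Myh1.

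Myh8, the perinatal chain, followed the muscle total closely. It measured 3.37, 9.62 and 0.0275 FPKM in controls and 5.40, 2.77 and 4.83 FPKM in treated skin. Per 100 of the muscle total this was 0.0154, 0.0153 and 0.0178 in controls and 0.0146, 0.0134 and 0.0142 in treated skin (0.0161 ± 0.00142 against 0.0141 ± 0.000595, SD, n = 3), so that all treated samples were lower, by a small margin. The control 3 value rests on 22 counts. As a share of the heavy chains Myh8 overlapped between groups (0.256% to 0.358% against 0.222% to 0.283%). Myh3, the embryonic chain, was nearly absent, at 0.220, 0.164 and 0.00809 FPKM in controls and 0.0637, 0.0651 and 0.176 FPKM in treated skin.

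Most fast genes kept to the muscle total. Over the 6 libraries, 11 of 15 varied at most 2-fold relative to it, while the total itself varied 407-fold in FPKM. The other 4 were Casq1 (2.19-fold), Pvalb (2.95-fold), Myh1 (4.78-fold) and Myh2 (9.67-fold). Myoz1, a Z-disc protein of fast fibres, varied least, 1.17-fold. Its level was 1.4, 1.5 and 1.35 per 100 in controls and 1.37, 1.27 and 1.31 in treated skin. The fast troponins hold the calcium switch of the thin filament. Tnni2, the inhibitory subunit, was at 6.33, 6.90 and 8.41 per 100 in controls and 7.52, 6.74 and 7.11 in treated skin. Tnnt3, which ties the complex to tropomyosin, was at 11.4, 11.1 and 9.74 per 100 in controls and 10.4, 10.3 and 11.6 in treated skin. Tnnc2, the calcium-binding subunit, was at 17.2, 15.7 and 14.2 per 100 in controls and 20.3, 14.3 and 17.8 in treated skin. All 3 had overlapping groups, and Tnnc2 was the most abundant fast member in every library. The essential light chain gene Myl1 was at 3.05, 3.72 and 2.78 per 100 in controls and 2.92, 3.14 and 2.47 in treated skin. The regulatory light chain gene Mylpf was at 5.37, 5.95 and 6.96 per 100 in controls and 4.41, 5.51 and 4.84 in treated skin, with only osimertinib 2 inside the control range. The SERCA pump gene Atp2a1 was at 8.27, 6.62 and 6.17 per 100 in controls and 5.04, 7.27 and 7.36 in treated skin, and the groups overlapped. Mybpc2, the fast myosin-binding protein, was at 1.01, 1.06 and 0.790 per 100 in controls and 0.702, 0.875 and 1.01 in treated skin. Mylk2, the kinase of the regulatory light chain, was at 0.310, 0.325 and 0.248 per 100 in controls and 0.245, 0.438 and 0.311 in treated skin. Actn3, the fast Z-disc actinin, was at 1.82, 1.9 and 1.5 per 100 in controls and 1.27, 1.14 and 1.59 in treated skin, where osimertinib 3 overlapped control 3.

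Relative to the muscle total, 5 of the 40 genes (12.5%) had groups that did not overlap: 2 above in treated skin (Acta1 and Tcap) and 3 below (Pvalb, Casq1 and Myh8). Among all 13498 genes tested, 0.652% were above and 0.726% below on this scale; for a gene that muscle does not make, the muscle total of control 3 sets the ratio. The 24 other striated muscle genes counted 3 (12.5%), with Mybph and Smpx above and Pygm below. With 3 against 3 samples none of these members can go below an exact permutation p of 0.1, and edgeR called none.

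Acta1, the skeletal alpha-actin of the thin filament (chromosome 8, 123891769 to 123894751, minus strand), was at 2934, 10482 and 23.3 FPKM in controls and 6938, 4762 and 5831 FPKM in treated skin. Relative to the muscle total this was 13.4, 16.6 and 15.0 per 100 in controls and 18.8, 23.1 and 17.1 in treated skin (15.0 ± 1.62 against 19.7 ± 3.08, SD, n = 3). The lowest treated sample, osimertinib 3, lay just above control 2, and the log2 difference was 0.38 (exact permutation p = 0.1).

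Tcap encodes telethonin, which caps titin at the Z-disc (chromosome 11, 98383811 to 98384953, plus strand). It was at 1.37, 2.10 and 2.10 per 100 in controls and 2.90, 4.52 and 3.09 in treated skin (1.86 ± 0.424 against 3.51 ± 0.887), a log2 difference of 0.92 (exact permutation p = 0.1). Set against Ttn, the giant spring that it binds, a ratio chosen after its values were seen, Tcap FPKM was 30.1, 37.5 and 47.5 times Ttn in controls and 72.1, 76.0 and 69.1 times in treated skin. Ttn itself was even, at 0.0454, 0.0560 and 0.0443 per 100 in controls and 0.0403, 0.0595 and 0.0448 in treated skin. With the amount of muscle, as the 24 other muscle genes, entered as a covariate in edgeR, Tcap differed by 0.86 ± 0.23 on the log2 scale, higher in treated skin (adjusted p = 0.169). It was then the only one of 35 members whose unadjusted edgeR p was under 0.05, as it was for 2516 of all 13498 genes. Without control 3 that fit gave 0.98 ± 0.24 (edgeR adjusted p = 0.272).

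Pvalb, the calcium buffer that speeds relaxation of the fastest fibres (chromosome 15, 78191114 to 78206400, minus strand), was at 3248, 6734 and 19.9 FPKM in controls and 3846, 1035 and 3513 FPKM in treated skin. Per 100 it was 14.8, 10.7 and 12.9 in controls and 10.4, 5.02 and 10.3 in treated skin (12.8 ± 2.07 against 8.58 ± 3.09, log2 difference -0.64, exact permutation p = 0.1). Osimertinib 2 was the lowest by far, and osimertinib 1 lay just under control 2. The ratio of Pvalb to Acta1, also chosen after its values were seen, was 1.11, 0.642 and 0.857 in controls and 0.554, 0.217 and 0.603 in treated skin.

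Casq1, the main calcium-binding protein inside the reticulum of fast fibres (chromosome 1, 172209894 to 172219868, minus strand), was at 1.77, 1.49 and 1.58 per 100 in controls and 1.22, 0.807 and 1.24 in treated skin (1.61 ± 0.143 against 1.09 ± 0.245, log2 difference -0.59, exact permutation p = 0.1). Every treated sample was under every control. With muscle as a covariate the edgeR estimate was -0.66 ± 0.34 (adjusted p = 0.354). Which members separate depends on the total: Acta1 and Tcap were above with counts in place of FPKM, with all 40 genes as the total and with the 24 other muscle genes as the total. With counts, Casq1 and Mylpf were below. With all 40 genes or the 24 other muscle genes as the total no member was below, Casq1 included, and Actn2 was above in both, joined by Mybpc1 with the 24 genes. Pvalb and Myh8 separated only with the FPKM total of 35 genes.

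**Figure D4:**
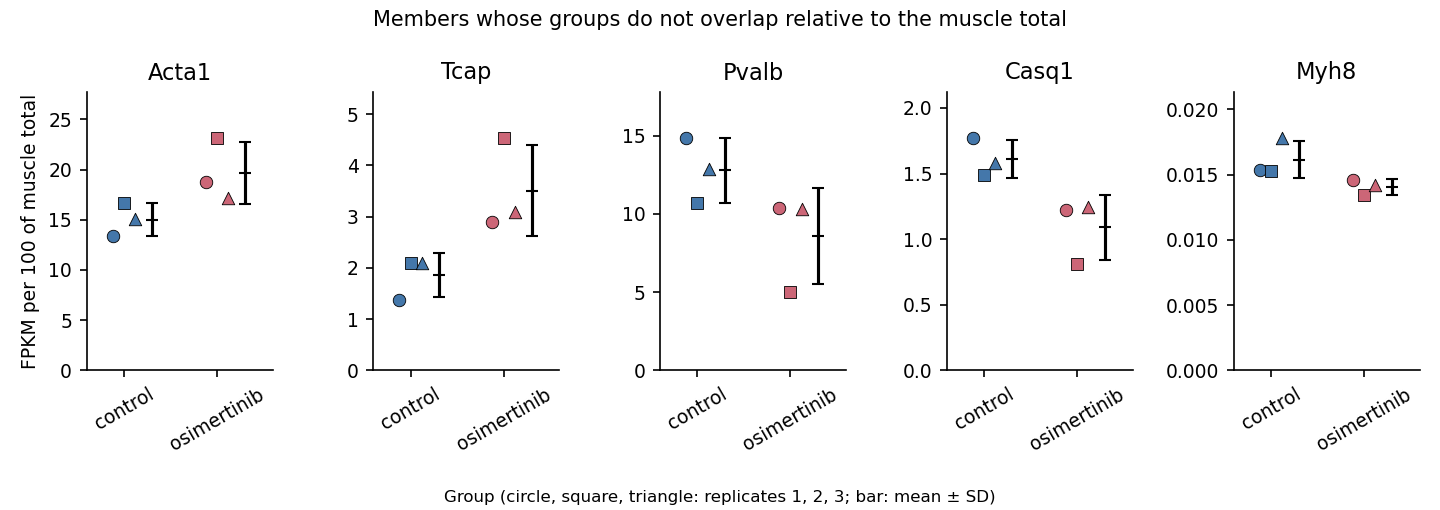
Level relative to the muscle total (FPKM per 100, separate vertical axes) of the 5 members whose groups did not overlap, 1 symbol per library, with bars for the mean ± SD of each group (n = 3). Treated samples lie above controls for Acta1 and Tcap and below for Pvalb, Casq1 and Myh8, with narrow gaps between the nearest samples of the groups for Acta1 (16.6 to 17.1), Pvalb (10.4 to 10.7) and Myh8 (0.0146 to 0.0153).

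Other genes of all fibres were spread more widely. Actn2, the Z-disc actinin of all fibres, was at 0.103, 0.190 and 0.252 per 100 in controls and 0.274, 0.603 and 0.202 in treated skin, 3.08-fold higher in osimertinib 2 than the median of the other 4 muscle-rich libraries. Mb, the oxygen store myoglobin, was at 0.640, 1.52 and 2.45 per 100 in controls and 1.34, 2.40 and 0.753 in treated skin, with overlapping groups. Ckm was even, at 5.38, 5.72 and 4.55 per 100 in controls and 4.89, 5.10 and 5.27 in treated skin. The thin-filament ruler Neb, the Z-disc protein Myot and the calcium release channel Ryr1 had overlapping groups at 0.0548 to 0.118, 0.247 to 0.627 and 0.0642 to 0.114 per 100.

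Osimertinib 2 differed from the other muscle-rich libraries in several genes at once: relative to the muscle total it was higher for Myh2, Actn2, Myh1 (2.85-fold), Mb (2.29-fold), the slow genes Myoz2 (3.23-fold) and Mybpc1 (2.08-fold) and Tcap (1.81-fold). It was lower for Pvalb (0.476 of the median), Casq1 (0.592) and Actn3 (0.671). These genes were picked for standing out in that library, and the slow genes did not move together there: Tnni1 was 4.92-fold higher and Tnnc1 was at 0.284 of the median. Tnnt1 (1.05-fold) and Casq2 (1.08-fold) were near the median, and Myl2 and Myh7 had 0 counts.

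Slow genes were a small minority, and the slow share of no fast and slow pair separated the groups. For all 9 pairs the exact permutation p ran from 0.4 to 1 and was 1 after adjustment over the pairs. The slow troponin I gene Tnni1 made up 0.00395%, 0.00597% and 0.519% of its pair with Tnni2 in controls and 0.0172%, 0.0621% and 0.0312% in treated skin. Its counts were 13, 64 and 17 in controls and 121, 220 and 195 in treated skin, so that every treated library had more Tnni1 counts than every control. In an edgeR fit with no filter on low values its log2 fold change was 2.21 ± 0.76 (adjusted p = 0.423). Tnnc1, the slow and cardiac troponin C, was at 0.360, 2.45 and 0.281 FPKM in controls and 1.63, 0.181 and 0.782 FPKM in treated skin, at most 1.26% of its pair with Tnnc2. That maximum, in control 3, rests on 20 Tnnc1 counts among 1197 of the pair.

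The slow Z-disc gene Myoz2 made up 0.281%, 0.645% and 4.04% of its pair with Myoz1 in controls and 0.998%, 2.81% and 0.984% in treated skin. Mybpc1, the slow-type myosin-binding protein, had the largest slow share in the 5 muscle-rich libraries, where no other pair exceeded 2.81%. The Mybpc1 share was 22.5%, 20.01% and 54.5% in controls and 36.2%, 42.0% and 24% in treated skin. Casq2, the slow and cardiac calsequestrin, made up 0.507%, 0.256% and 32.5% of its pair in controls and 0.543%, 1.04% and 0.962% in treated skin. In each of these pairs control 3 had the highest share. Without control 3, the slow share was higher in every treated sample than in both controls for Tnni1, Myoz2, Mybpc1 and Casq2, 4 of 9 pairs. The pairs of Tnnt1, Tnnc1, Atp2a2, Myl2 and Myl3 still overlapped. The smallest exact permutation p is still 0.1, and by sample order alone 2 against 3 samples separate at that rate in each direction. Relative to the muscle total, Tnni1, Myoz2 and Mybpc1 were also higher without control 3, but the same slow gene values enter both scales. Casq2 itself overlapped on that scale, and its partner Casq1 was lower in each treated sample. Over all 40 genes 14 (35%) had groups that did not overlap without control 3, 8 above and 6 below, beside 4 of the 24 other muscle genes (16.7%). Of all tested genes 6.76% were above and 0.8% below. These last shares are a poor measure, since the muscle total, largest in control 2, sets the ratio for a gene that muscle does not make.

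**Figure D5:**
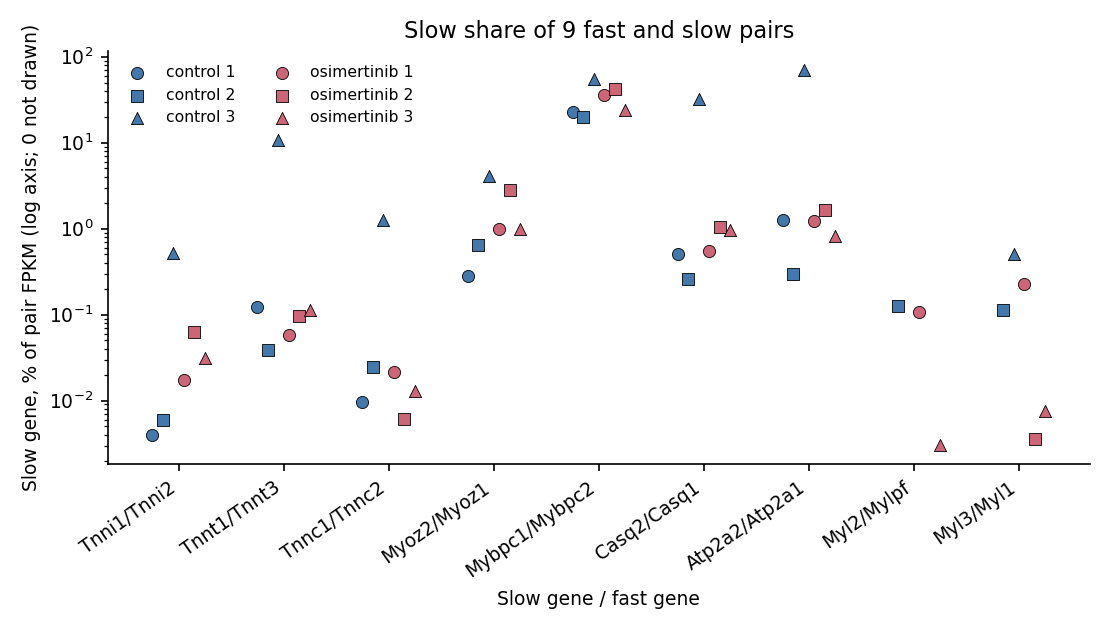
Slow share of each fast and slow pair in percent of the summed FPKM of the pair (log axis, values of 0 not drawn), 1 symbol per library with the same symbol for the same replicate number. Control 3 is the highest of the 6 libraries in 8 of the 9 pairs, and Mybpc1 has the largest share in the other 5 libraries, 20.01% to 42.0%.

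Myl2 and Myl3, the light chains of slow and cardiac muscle, appeared in control 2 and osimertinib 1 and hardly elsewhere. Myl2 had 0, 608 and 0 counts in controls and 239, 0 and 8 in treated skin. Myl3 had 0, 364 and 4 counts in controls and 351, 4 and 11 in treated skin. Myh7 was highest in the same libraries (37 and 36 counts). Some markers of heart muscle were also highest there, 5 of 13 in control 2 and 2 in osimertinib 1, while 3 were highest in control 1 and 3 in osimertinib 3. Actc1, the cardiac alpha-actin, was at 5.22, 108 and 0.258 FPKM in controls and 25.0, 2.95 and 3.88 FPKM in treated skin. Myh6, the atrial heavy chain, was at 0.0328, 2.57 and 0.0155 FPKM in controls and 1.97, 0.0142 and 0 FPKM in treated skin. The 13 cardiac markers summed to 12.6, 119.7 and 16.4 FPKM in controls and 51.9, 10.4 and 22.5 FPKM in treated skin. Without Actc1 the other 12 summed to 7.4, 11.7 and 16.1 FPKM in controls and 26.9, 7.45 and 18.6 FPKM in treated skin. Control 2 did not stand out in that sum, but Nppb alone was most of it in control 3 and in every treated sample. This natriuretic peptide gene was at 0.534, 1.64 and 9.83 FPKM in controls and 17.5, 4.17 and 13.4 FPKM in treated skin. Nppa, made by atrial muscle, was at most 0.268 FPKM. Of these 13, 4 were tested, 1 had a positive and 3 a negative fold change, and edgeR called 0. Their part in the slow gene values was not tested.

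Genes of the list that other skin cells also use varied little in FPKM beside the muscle total, and stood far out in control 3 once divided by its small muscle total. Tpm3, the slow tropomyosin that is also cytoskeletal, was at 32.7, 16.8 and 41.7 FPKM in controls and 35.2, 30.4 and 35.6 FPKM in treated skin. Atp2a2, the SERCA pump of slow muscle and of most other cells, was at 23.1, 12.5 and 23.2 FPKM in controls and 22.9, 24.8 and 20.6 FPKM in treated skin. Relative to the muscle total, control 3 exceeded the median of the other 5 libraries 258-fold for Tpm3 and 242-fold for Atp2a2. The slow troponin T gene Tnnt1 varied as little, at 3.10, 2.69 and 1.80 FPKM in controls and 2.24, 2.07 and 4.43 FPKM in treated skin, a 116-fold excess in control 3 once divided, and Casq2 showed an 89.8-fold excess. Tnnt1 and Casq2 had been counted among the genes of the muscle total. Atp2a2 and Tnnt1 made up 70.8% and 10.7% of their pairs in control 3, against at most 1.63% and 0.124% elsewhere.

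Tpm1, Tpm2 and Des lay between these patterns. Tpm1, a tropomyosin of fast and smooth muscle, was at 339.7, 1022 and 30.1 FPKM in controls and 621, 288 and 525 FPKM in treated skin. Des, the intermediate filament of all muscle, was at 227, 792 and 18.6 FPKM in controls and 579, 392 and 483 FPKM in treated skin. Their excess in control 3 relative to the muscle total was 12.5-fold for Tpm1, 8.43-fold for Des and 8.17-fold for Tpm2. Smooth muscle actin Acta2 was at 69.2 FPKM in control 3 and 29.6 to 62.0 FPKM elsewhere, and smooth muscle myosin Myh11 at 9.49 and 2.39 to 12 FPKM. Of the 12 smooth muscle genes (Des among them) 10 were tested, 4 had positive and 6 negative fold changes, and edgeR called 0. The other 11 without Des summed to 170.8, 128 and 168 FPKM in controls and 146, 112 and 157 FPKM in treated skin, a far narrower spread than that of Des. Their part in these values was not tested.

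Regulators and stress genes of muscle gave no call either. Of 16 myogenic and satellite cell genes 8 were tested, 2 positive and 6 negative, with a median log2 fold change of -0.22. The myogenic factor Myf6 was at 13.9, 72.4 and 0.239 FPKM in controls and 35.8, 21.1 and 30.3 FPKM in treated skin, in nearly the order of the muscle total, and the satellite cell factor Pax7 was at most 0.0800 FPKM. Of 17 synapse and denervation genes 10 were tested, 5 in each direction, median 0.05. Runx1, which muscle raises after denervation but which hair follicle and immune cells also use, was at 1.08, 0.7 and 1.32 FPKM in controls and 1.98, 3.88 and 2.97 FPKM in treated skin. Its log2 fold change was 1.44 ± 0.26 (edgeR adjusted p = 0.179). Chrng, the fetal acetylcholine receptor subunit, stayed at or below 0.0855 FPKM. Of 12 atrophy genes 12 were tested, 1 positive and 11 negative, median -0.47; Ddit4, a stress-induced brake on mTOR, had the smallest p at -1.07 ± 0.19 (edgeR adjusted p = 0.179). Of 11 regulators of slow fibres 7 were tested, 3 positive and 4 negative, median -0.02, with Nfatc1 at -0.90 ± 0.28 (edgeR adjusted p = 0.280). Neither Ddit4 nor Nfatc1 followed the muscle total. Ddit4 was at 59.0, 33.1 and 56.0 FPKM in controls and 20.5, 28.3 and 24.9 FPKM in treated skin. Nfatc1 was at 9.25, 5.71 and 7.46 FPKM in controls and 5.24, 2.96 and 4.29 FPKM in treated skin. Which cells made them was not tested. Csrp3, a muscle LIM protein, was at 6.71, 42.4 and 0.447 FPKM in controls and 81.6, 81.4 and 21.2 FPKM in treated skin.

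Markers of other skin cells moved between libraries too. The 12 adipocyte genes summed to 1293, 1390.0 and 265 FPKM in controls and 389, 494 and 994 FPKM in treated skin, and 11 of 11 tested had negative fold changes (median -0.83). The 9 keratinocyte genes were all negative (median -1.12), as were 5 of 7 fibroblast genes (median -0.63) and 5 of 6 Schwann cell genes (median -0.87). Non-muscle relatives of the members, such as Actb, Myh9 and Tpm4, had 3 positive and 12 negative fold changes of 15 tested (median -0.11). In edgeR 0 genes of any of these lists were called. Their part in the members' values was not tested.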

How the data were processed

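Per the labels' protocols, polyadenylated RNA of 6 skin samples was made into strand-marked libraries with molecular identifiers and sequenced in pairs. Cutadapt 1.9 and GRCm38 are named in the submitters' processing notes. The sources used here do not give the aligner, counter, annotation, or whether strand or identifiers were used in counting. Per the file headers, the deposited table gives raw counts for each gene and FPKM values computed by the authors. It also holds 6 columns of values that match no sample and were not used.

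Groups and replicate numbers came from sample titles. Counts were tested with edgeR 4.0.16 (R 4.3.3; quasi-likelihood, TMM, mean FPKM of at least 1, Benjamini-Hochberg, threshold 0.05), and DESeq2 1.42.0 and limma 3.58.1 served as alternatives. On simulated data (13498 genes, osimertinib against control) edgeR recovered 0%, 40.3% and 81.8% of genes changed 2-fold, 4-fold and 8-fold, with 4 false calls. The changed genes were drawn at random from all tested genes. These rates therefore do not apply to the members that only muscle makes, most of which had large standard errors. Composition was computed from FPKM as described with each result, with exact permutation tests. The members and all lists were chosen with earlier results of these data known. Values in every sample are given for the heavy chains, the members of the 9 pairs, Acta1, Ckm, Pvalb, Actn3, Mylk2, Ttn, Des and Tpm1. Also described are at most 3 genes with the smallest edgeR p of each other list. Some genes were chosen after their values were seen (Tcap, Actn2, Mb, Myf6, Pax7, Chrng, Myh6, Nppa, Acta2, Smpx, Pygm), and several of these have only a maximum, a range or a direction. RefSeq promoters were matched by symbol.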

Additional observations from a re-analysis of the deposited data

How the results depend on the processing

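In edgeR, DESeq2 and limma 0 members were called, in either direction, under every setting run: other scalings and filters, the replicate block, the muscle covariate, and each sample left out in turn. The median log2 fold change of the members changed sign, from -0.21 to 1.83 and 2.12 in limma (pseudocounts 1 and 0.1), 0.05 with library totals and 1.44 without control 2. The replicate block gave a median of 1.15 and a muscle total difference of 2.27 (exact permutation p = 0.75). Samples sharing a number showed no steady pairing: their deviations correlated at 0.22, 0.03 and -0.11. Control 1 correlated best with osimertinib 1, but control 2 with osimertinib 3 (0.07) and control 3 with osimertinib 2 (0.11). The muscle total difference ran from -0.37 (without control 3) to 3.98 (without control 2). With all 40 genes as the total, 3 members had groups that did not overlap, in place of 5, and 4 with counts or with the other muscle genes as the total. With 1 sample left out the number ran from 6 to 14, the highest without control 3. The pairs with groups that did not overlap ran from 0 to 4, the highest without control 3, and the heavy chains from 0 to 2, the highest without osimertinib 1; with all samples both were 0. Fewer samples overlap less by construction, and no sample left out allows an exact permutation p under 0.1. The fit with the muscle covariate and no control 3 was chosen after seeing the data. Depth limits the scarcest genes: Myh7 had at most 37 counts, and control 3 had 3169 heavy chain counts, of which 22 were Myh8 and 4 Myh3.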
